A study of Mus musculus with 9 samples.

Results

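Keratin and cornified envelope genes are described here in Hepa1-6 cells, a mouse hepatocarcinoma line, after treatment with the material named P-Por-Os. The 7 genes are Krt16, Krt76, Ivl, Lce1h, Sprr1b, Sprr2e and S100a14. They were selected by name from the 160 genes that the authors' deposited table lists as higher after P-Por-Os than in control, out of 217 distinct genes in the deposited tables. To be listed, a gene needed a log2 fold of 1 or more together with p under 0.05, unadjusted, in these same libraries. Their difference from control is therefore what chose them, and it is given below as a description with no test.

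The study sequenced RNA of 9 libraries in 3 groups of 3, all from wild-type Hepa1-6 cells. Control cells were untreated per the sample labels and received PBS per the series design. The treated groups received 25.57 µg/mL P-Por-Os alone or the same dose with ultrasound (P-Por-Os+US). Values are RPKM, reads scaled to gene length and to the library total, and they are held for listed genes only. Library totals behind the RPKM values lay between 35152000 and 37668000 reads in the P-Por-Os and control libraries. No label says whether the libraries of a group were separate cultures, so the SDs below may be technical. In bulk RNA, more cells that express a gene and more of its RNA per cell cannot be told apart. Of the 7 hepatocyte markers that the annotation names, 0 were in any table, and their levels were not analysed here, so the labelled cell type was not checked against them.

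Cornification is the process by which keratinocytes of the epidermis turn into flattened, dead, protective cells. Keratin filaments fill the cell, and an envelope of cross-linked proteins forms beneath its membrane. Involucrin is an early scaffold of that envelope, small proline-rich proteins bridge its components, and late cornified envelope proteins join it later, with transglutaminases as the cross-linking enzymes. Many of these proteins are encoded side by side in the epidermal differentiation complex, which also holds many, though not all, S100 genes. Transcription factors of the AP-1 family, dimers of Fos and Jun proteins, are known regulators of involucrin and of small proline-rich genes in keratinocytes. Liver cells are not known for cornification.

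Promoter sequences were available from RefSeq (GRCm38.p6) for 5 of the 7 genes: Ivl, Sprr1b, Sprr2e, Lce1h and Krt76. The windows ran from 250 bases before the annotated transcription start to 50 bases from it, 300 bases in all. Those of Ivl, Sprr1b and Sprr2e are shown because each holds a match to the AP-1 letters TGANTCA as well as a TATA box, TATAAA. Both motifs are in capitals, and each sequence is written 5′ to 3′ in the direction of transcription. The Ivl window is chr3:92573686-92573985 on the minus strand, the Sprr1b window chr3:92438730-92439029 on the minus strand and the Sprr2e window chr3:92351893-92352192 on the plus strand.
Ivl: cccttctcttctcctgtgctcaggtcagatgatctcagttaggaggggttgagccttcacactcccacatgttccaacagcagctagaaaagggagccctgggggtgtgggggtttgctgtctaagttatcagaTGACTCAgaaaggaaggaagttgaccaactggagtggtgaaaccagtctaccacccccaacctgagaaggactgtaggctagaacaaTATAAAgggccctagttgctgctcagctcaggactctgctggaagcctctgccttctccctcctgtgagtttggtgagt
Sprr1b: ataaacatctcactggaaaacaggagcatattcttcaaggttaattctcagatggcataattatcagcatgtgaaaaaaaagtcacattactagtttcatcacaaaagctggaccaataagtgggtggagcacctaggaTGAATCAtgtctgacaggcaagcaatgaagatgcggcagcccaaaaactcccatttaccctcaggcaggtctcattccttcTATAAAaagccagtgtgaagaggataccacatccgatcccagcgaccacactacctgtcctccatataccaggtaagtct
Sprr2e: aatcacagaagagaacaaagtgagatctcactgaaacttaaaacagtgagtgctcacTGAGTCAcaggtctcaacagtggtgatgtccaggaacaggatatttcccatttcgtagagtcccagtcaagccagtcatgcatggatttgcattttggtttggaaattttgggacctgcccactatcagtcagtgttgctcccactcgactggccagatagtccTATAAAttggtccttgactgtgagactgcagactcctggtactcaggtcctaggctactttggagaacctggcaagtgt

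The AP-1 match read TGACTCA in Ivl, TGAATCA in Sprr1b and TGAGTCA in Sprr2e. With the start base counted as 0, it began at base -116 in Ivl, at -111 in Sprr1b and at -193 in Sprr2e. The TATA box began at base -29 in Ivl, Sprr2e and Krt76 and at -30 in Sprr1b. TGANTCA was therefore found in 3 of the 5 windows, and 7.81 percent of all 32851 promoter windows of this length held it. TATAAA was found in 4 of the 5, against 13.6 percent of all windows. The antioxidant response element core, TGACNNNGC, occurred in Krt76, where the minus strand read TGACTTGGC from base -50 to -42, and in 12.4 percent of all windows. A GC-rich motif, GGGNGGGG, and a C/EBP-like motif, TTGCNNAA, occurred in 0 of the 5 windows and in 33.2 and 10.8 percent of all windows. The Lce1h window held none of the 5 motifs. All motifs were searched on both strands, TGANTCA reads the same on both, and no matches to different motifs overlapped in these windows. A match to these letters is not evidence that a factor binds there.

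**Figure D1:**
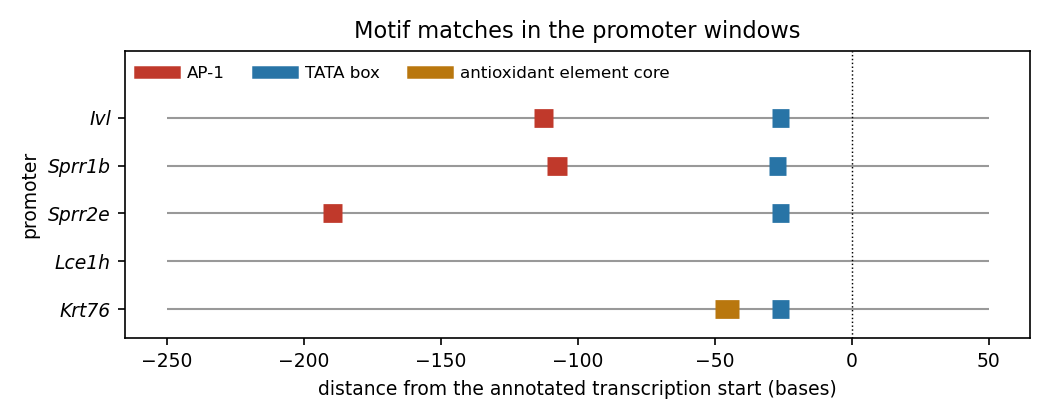
Motif matches in the promoter windows of 5 genes, by distance from the annotated transcription start in bases. Coloured blocks are matches, drawn to scale along the axis; AP-1 matches stand at -116 in Ivl, -111 in Sprr1b and -193 in Sprr2e, and the TATA boxes line up at -29 or -30.

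All 7 genes were higher in every P-Por-Os library than in every control library, in the same libraries on which they were listed. The table that holds them lists 1.05 percent of the 15270 genes tested, and nothing is read from the count of 7 of 7 because the genes were taken from that table. Ratios of mean RPKM ran from 2.93-fold for Sprr1b to 11.9-fold for Krt16. On the log2 scale the median ratio of the 7 was 2.28, beside 1.35 for all 160 listed genes. For the authors' own log2 folds the corresponding medians were 2.15 and 1.24 in the authors' deposited table. For each of the 7 genes the ratio of mean RPKM was above the authors' fold. For Ivl it was 4.85, against 4.45 in the authors' deposited table. The reason for this difference was not tested, and counting intervals do not cover it. The 7 genes and the listed genes were not matched for read level in either comparison of medians. Among the 160 listed genes 159 had no overlap between groups, so this holds for nearly every gene of the table.

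Krt16 had the largest ratio, and the control levels of both keratins were the lowest of the 7 genes. Krt16 encodes a type I keratin of epidermal appendages that keratinocytes make during stress and wound repair. It was at 0.698, 0.712 and 0.675 RPKM in the P-Por-Os libraries and at 0.0679, 0.0707 and 0.0364 RPKM in the control libraries. The P-Por-Os libraries nearly coincided, at 40, 40 and 38 reads, while control rested on 4, 4 and 2 reads. The means were 0.695 ± 0.0188 RPKM and 0.0583 ± 0.0190 RPKM (SD, n = 3 each). With 118 reads summed over the P-Por-Os libraries and 10 over control, the ratio of reads per library total was 11.9 with an exact 95 percent counting interval from 6.22 to 25.4. This and the other counting intervals below cover counting error only.

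Krt76 encodes a type II keratin known from the palate and other oral epithelium. Its P-Por-Os libraries stood at 0.579, 0.422 and 0.577 RPKM and its control libraries at 0.0919, 0.0598 and 0.0984 RPKM. Replicate 2 was the lowest library of each group. Read numbers were 49, 35 and 48 against 8, 5 and 8. The ratio of summed reads was 6.31, with a counting interval from 3.97 to 10.5 that overlaps those of Krt16 and Lce1h, so the order of these 3 genes is not settled at this depth.

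Ivl encodes involucrin and was the most abundant of the 7 genes in either group. It was at 13.0, 14.8 and 14.1 RPKM after P-Por-Os and at 2.69, 3.04 and 2.90 RPKM in control. The lowest P-Por-Os library was 4.27-fold above the highest control library. These values rest on 913 to 1022 reads per P-Por-Os library and 195 to 211 per control library, the deepest support in the group. The means were 14.0 ± 0.927 and 2.88 ± 0.172 RPKM (SD, n = 3 each), a ratio of 4.85 with a counting interval of the summed reads from 4.45 to 5.31. By the authors' p, one of the values that chose the rows, Ivl ranked 2 of the 160 listed genes, and the other 6 ranked between 61 and 117.

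Lce1h encodes a late cornified envelope protein. Its P-Por-Os libraries read 2.13, 1.85 and 1.69 RPKM, and its control libraries 0.451, 0.235 and 0.242 RPKM. Control replicate 1 was nearly at 2 times the level of the other control libraries, on 12 reads against 6 and 6. The group means were 1.89 ± 0.220 and 0.309 ± 0.123 RPKM (SD, n = 3 each), 6.11-fold apart, and the counting interval of the ratio of summed reads ran from 3.92 to 9.78. The log2 ratio of Lce1h, 2.61, was just under the 2.66 of Krt76, and with medians of libraries it was above it, at 2.94 against 2.65. Without control replicate 1 it was also above it, at 2.99 against 2.73.

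The small proline-rich genes encode cross-bridging proteins of the envelope. Sprr1b was at 3.72, 3.69 and 3.48 RPKM after P-Por-Os and at 1.09, 1.30 and 1.34 RPKM in control. Its libraries agreed closely within each group, and its ratio of 2.93 was the smallest of the 7. The means were 3.63 ± 0.130 and 1.24 ± 0.134 RPKM (SD, n = 3 each), with a counting interval of the ratio of summed reads from 2.36 to 3.67.

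Sprr2e was less even. It was at 1.27, 2.37 and 2.83 RPKM after P-Por-Os and at 0.657, 0.726 and 0.528 RPKM in control. P-Por-Os replicate 1, on 30 reads, lay well below the other P-Por-Os libraries, on 55 and 66 reads. The counting interval of P-Por-Os replicate 1, 0.854 to 1.81 RPKM, overlapped those of all 3 control libraries. These ran from 0.375 to 1.07, from 0.423 to 1.16 and from 0.273 to 0.922 RPKM in control replicates 1, 2 and 3. The means were 2.16 ± 0.805 and 0.637 ± 0.101 RPKM (SD, n = 3 each), 3.39-fold apart.

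S100a14 encodes a member of the S100 family of calcium-binding proteins that is expressed in epithelia. It was at 0.743, 0.758 and 0.418 RPKM after P-Por-Os and at 0.123, 0.288 and 0.115 RPKM in control. The groups were closest together here: P-Por-Os replicate 3 stood 1.45-fold above control replicate 2, the narrowest gap of the 7, and their counting intervals overlapped, from 0.273 to 0.613 and from 0.171 to 0.455 RPKM. The means were 0.640 ± 0.192 and 0.175 ± 0.0977 RPKM (SD, n = 3 each). Without control replicate 2 the log2 ratio of means became 2.43, against 1.87 with all libraries, and without control replicate 3 it was 1.64.

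**Figure D2:**
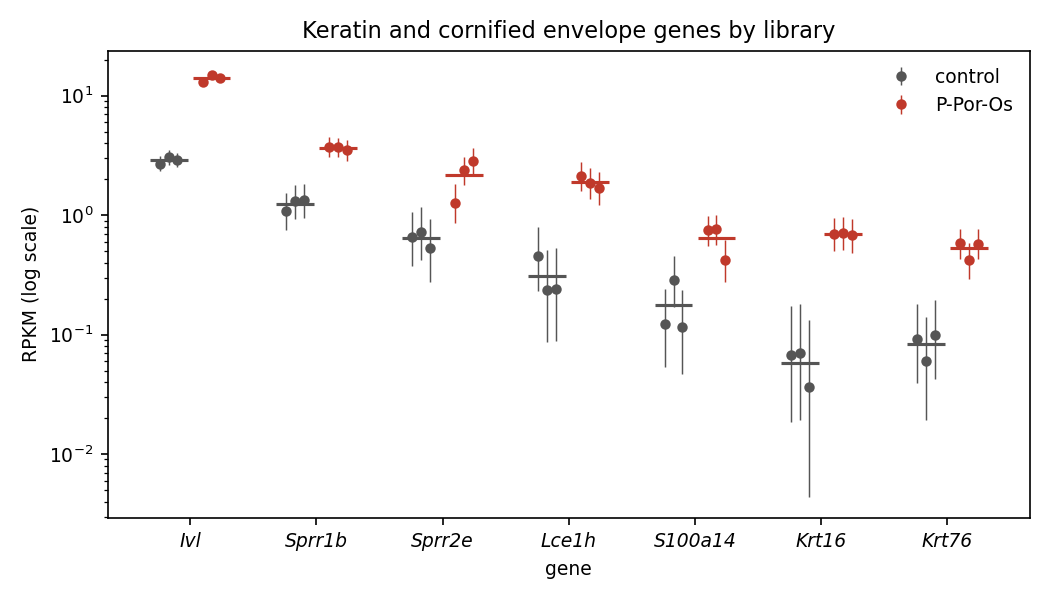
RPKM on a log scale of the 7 genes in each of 3 control (grey) and 3 P-Por-Os (red) libraries, drawn in the order of replicates 1 to 3. Points are libraries, vertical lines their exact 95 percent counting intervals and horizontal lines the group means; the libraries do not overlap between groups for any gene, and the gap is narrowest for S100a14 and widest for Krt16.

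In RPKM, which is per length, the order after P-Por-Os was Ivl, Sprr1b, Sprr2e, Lce1h, Krt16, S100a14 and Krt76. Library values of Sprr2e and Lce1h overlapped, as did those of Krt16 and S100a14 and of S100a14 and Krt76, so these neighbours did not differ beyond their spread. In control the first 4 genes came in the same order, followed by S100a14, Krt76 and Krt16. Krt16 thus stood last of the 7 in control and in position 5 after P-Por-Os, though Krt76 and Krt16 overlapped in control, as did Lce1h and S100a14. The difference of means, as distinct from the ratio, was 11.1 RPKM for Ivl, 2.39 for Sprr1b and under that for the other genes, down to 0.442 for Krt76. By mean RPKM after P-Por-Os, Ivl ranked 49 of the 160 listed genes, and Krt76 ranked 130.

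In the authors' deposited table Krt16, Krt76 and Lce1h ranked 1, 2 and 3 of 160 by log2 fold and Ivl ranked 9. S100a14, Sprr2e and Sprr1b ranked 23, 29 and 44, with log2 folds of 1.73, 1.62 and 1.43 in the authors' deposited table. The smallest of these, that of Sprr1b, is well inside the minimum of 1. The listed genes just inside that minimum in the authors' deposited table were Gm45518 and Capg, each with a log2 fold of 1.00. Capg, an actin-capping protein gene, averaged 4.79 ± 0.164 RPKM with P-Por-Os and 2.20 ± 0.364 without (SD, n = 3 each). Genes just outside the minimum were not analysed here.

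**Figure D3:**
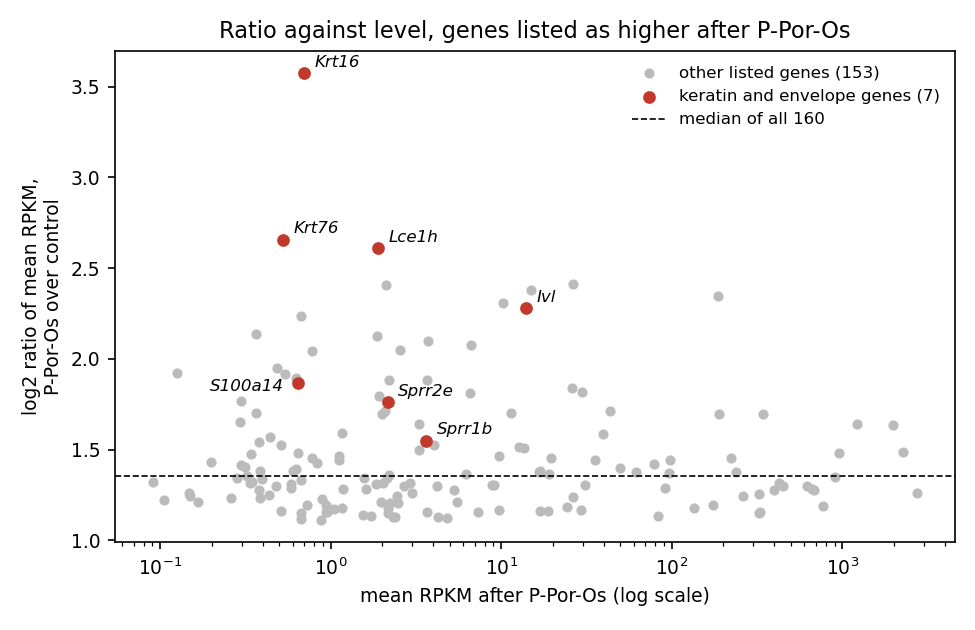
The log2 ratio of mean RPKM, P-Por-Os over control, against mean RPKM after P-Por-Os on a log scale, for the 160 listed genes. The 7 genes (red) lie above the dashed median of 1.35 and, apart from Ivl at 14.0 RPKM, at levels below 4 RPKM.

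Spread between libraries was set beside the error that read counting alone would give. After P-Por-Os the SD was 37.3 percent of the mean for Sprr2e and 30.0 percent for S100a14, where counting alone gives 14.1 and 15.8 percent. For Ivl, with far more reads, it was 6.64 percent against 3.21 percent. For Krt16 and Sprr1b it was 2.71 and 3.57 percent, below the 15.9 and 9.58 percent of counting. In control S100a14 had the widest spread, at 55.6 percent against 30.2 percent from counting. With 3 libraries a group such SDs are themselves imprecise. The unevenness followed no single library: P-Por-Os replicate 1 was the lowest for 2 of the 7 genes, replicate 2 for 1 and replicate 3 for 4. Summed over the 6 genes other than Ivl, the P-Por-Os libraries held 334, 334 and 325 reads and the control libraries 82, 89 and 74.

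**Figure D4:**
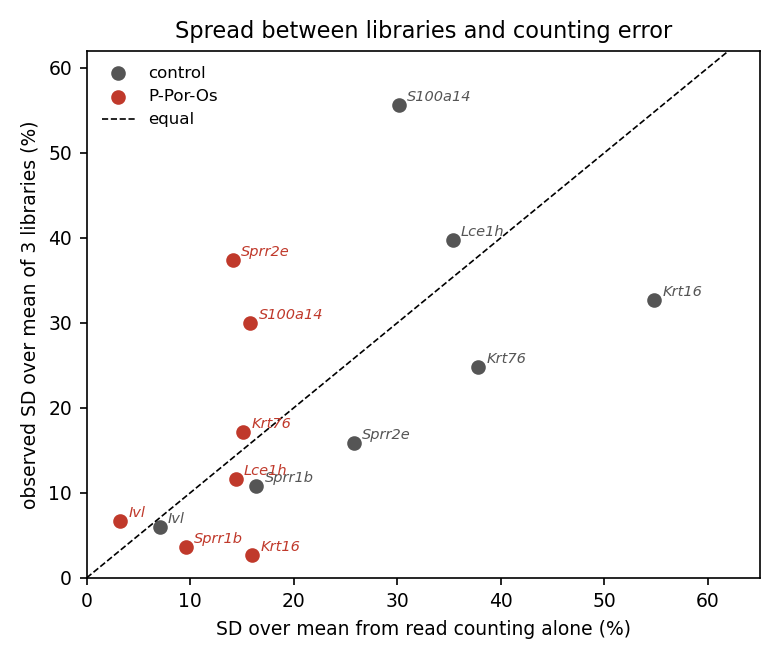
Observed SD over mean of 3 libraries against the SD over mean that read counting alone gives, both in percent, for the 7 genes in control (grey) and after P-Por-Os (red). Points above the dashed line spread more than counting; Sprr2e and S100a14 after P-Por-Os and S100a14 in control lie farthest above it.

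Control replicate 1 ran low for listed genes in general, lying -0.22 from the mean of the control libraries in log2 units (median over all 160). Over the 7 genes its median distance was 0.06, with single genes from -0.38 to 0.61. The lowest median was that of control replicate 3, at -0.26, with single genes from -0.62 to 0.27. Replicate 3 was the lowest control library for 3 genes, Krt16, S100a14 and Sprr2e, on 2, 7 and 12 reads. Replicate 1 was the lowest for 2, Ivl and Sprr1b, the genes with the most reads, and replicate 2 for 2. These medians therefore do not settle which control library ran low for the 7 genes. Leaving out control replicate 1 gave a median log2 ratio of 2.23 for the 7 genes, against 2.28 with it.

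Of the 7 genes, 5 lie on chromosome 3 (GRCm38, GENCODE M21 annotation) within the epidermal differentiation complex. S100a14 spans 90526856 to 90528837 on the plus strand and Sprr2e 92352143 to 92353449 on the plus strand. Sprr1b spans 92436809 to 92438789, Ivl 92570902 to 92573735 and Lce1h 92763215 to 92765065, each on the minus strand. Sprr2e, Sprr1b, Ivl and Lce1h follow one another at 86.6, 135 and 191 kb between start sites, and S100a14 lies 1825 kb before Sprr2e. The keratins lie elsewhere, Krt16 on chromosome 11 from 100246091 to 100248902 and Krt76 on chromosome 15 from 101884351 to 101892920, both on the minus strand.

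The stretch from S100a14 to Lce1h holds 49 protein-coding genes, and 5 of them, the members themselves, were listed after P-Por-Os, beside 1.05 percent of all genes tested. Nothing is read from this count, since members bound the stretch at both ends and the choice of members fixed who was counted. The other 44 had no row. By family, 1 of 10 S100 genes, 2 of 15 small proline-rich genes and 1 of 10 late cornified envelope genes in the stretch were listed, with Ivl as the remaining one. The listed genes were not the nearest neighbours of each other, since unlisted Sprr2 genes lie between Sprr2e and Sprr1b and unlisted Lce1 genes between Ivl and Lce1h. A gene without a row either was not tested or did not pass the listing criterion, and its level was not analysed here.

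**Figure D5:**
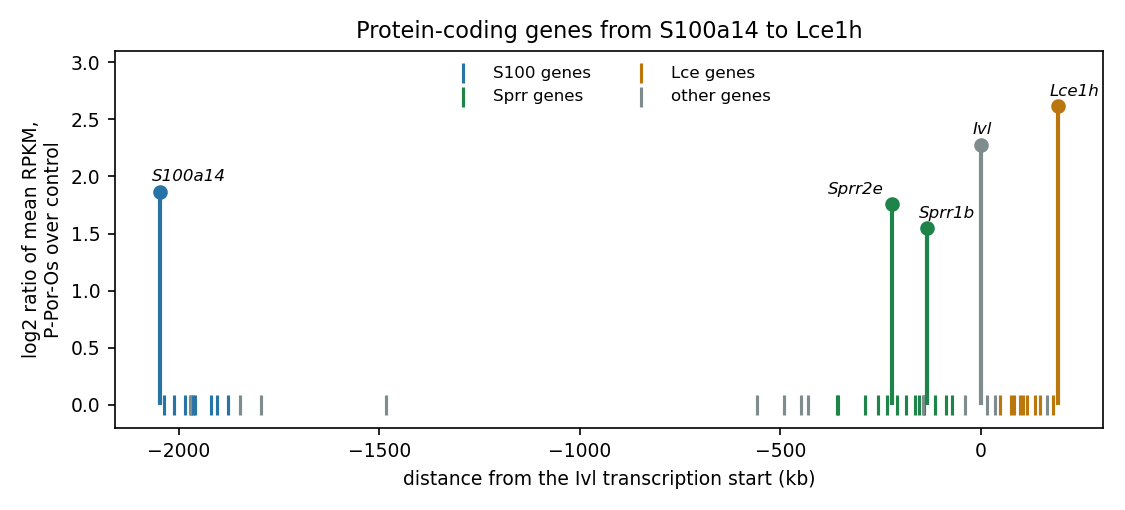
Protein-coding genes from S100a14 to Lce1h by distance of their start from the Ivl start in kb, with the log2 ratio of mean RPKM, P-Por-Os over control, as the height of the 5 listed genes. Short ticks on the zero line are the 44 genes with no row and carry no value.

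Across whole families, 2 of 53 keratin genes, 2 of 15 Sprr genes, 1 of 21 Lce genes and 1 of 16 S100 genes were in the table for P-Por-Os against control, each of them a member. Of 16 other genes of the complex, which include the envelope proteins loricrin and filaggrin, Ivl was the single one listed. Of 29 genes for cross-linking and envelope assembly, among them the transglutaminase Tgm1 and the plakins Ppl and Evpl, 0 were listed. Of the 7 EGF receptor ligands and of the 15 NRF2 targets, which answer oxidative stress, 0 were listed in any table. These counts cover genes listed as higher, and the number of each list that was tested is not known here.

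Of the 25 AP-1 and epidermal regulators, 1 was listed for P-Por-Os against control, beside 1.05 percent of all genes tested. This was Fosb, which encodes a Fos protein of the AP-1 family. Fosb was at 6.72, 4.95 and 7.05 RPKM after P-Por-Os and at 2.28, 2.50 and 2.48 RPKM in control, with no overlap. It was also listed for P-Por-Os+US against control, where its libraries stood at 7.59, 7.54 and 9.86 RPKM against the same control libraries. Any part of Fosb in the levels of the 7 genes was not tested.

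Of 11 markers of basal, stressed or differentiated keratinocytes, which include Krt5, Krt14, Krt17 and Trp63, 0 were listed in any of the 3 tables. The list leaves out Krt16, which keratinocytes make during stress, and the envelope gene Ivl. Both were listed for P-Por-Os against control, so the count of 0 does not cover every keratinocyte marker. With 1.05 percent of all genes tested listed in that comparison, 0 of 11 says little. Among markers of other cells, 0 of 5 fibroblast, 0 of 4 proliferating cell and 1 of 6 myeloid markers were listed for P-Por-Os against control. The myeloid one, Cd14, averaged 4.03 ± 0.246 RPKM with P-Por-Os and 1.40 ± 0.105 without (SD, n = 3 each). Of 6 simple epithelium markers 0 were listed in that comparison, and Epcam was listed where ultrasound was added to P-Por-Os. Summed levels of these marker lists were not analysed here, since unlisted genes have no values, and their part in the result was not tested.

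Some reads of these genes may be shared with relatives. Of the 31-base words in Krt16 transcripts, 51.9 percent also occur in transcripts of other genes, most of all Gm11597, Krt14, Krt17 and Krt42. The share was 47.7 percent for Lce1h, mainly with Lce1i and Lce1g, and 21.1 percent for Sprr2e, mainly with Sprr2i and Sprr2d. It was 3.24 percent for Krt76, 0.482 percent for Ivl and 0 for Sprr1b and S100a14. None of the relatives named here was listed, and how the counting treated reads that fit several genes is not given in the sources used here. Reads were 150 bases long, so the share of shared 31-base words is not the share of reads that fit several genes. The levels of Krt16, Lce1h and Sprr2e are uncertain by an amount that was not measured.

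With ultrasound added, none of the 7 genes was in a table. The comparison of P-Por-Os+US with control listed 61 genes as higher, 0.403 percent of the 15142 tested, and 0 of the 7 were among them. The comparison of the combination with the material alone listed 27, 0.179 percent of 15074, and again 0 of the 7 were among them. Krt16, Krt76, Ivl, Lce1h, Sprr1b, Sprr2e and S100a14 are thus each absent from both tables. Their levels with ultrasound were not analysed here, because an absent row carries no value. The absences do not show that the genes were unchanged or lower with ultrasound, since the tables list genes that were higher and met both thresholds. Whether the difference from control itself differed between P-Por-Os and P-Por-Os+US was not tested, and both comparisons use the same 3 control libraries.

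The genes whose profile was most like that of the 7 were sought among the other 153 listed genes, by Pearson's r with the mean standardised profile of log2 RPKM over the 6 libraries. The highest were Gm21738 (r = 0.999), Ces2g (r = 0.998), Gm10718 (r = 0.997), Slc30a1 (r = 0.996) and Gm23187 (r = 0.996). Ces2g, a carboxylesterase gene, averaged 0.629 ± 0.0332 RPKM with P-Por-Os and 0.169 ± 0.00958 without, and Slc30a1, which encodes a zinc exporter, at 1.17 ± 0.0758 against 0.386 ± 0.0324 (SD, n = 3 each). The median r over all 160 genes was 0.953, as each was listed for the same step between the same libraries, so r separates genes by little.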

How the data were processed

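Values came from the authors' deposited tables, one per comparison. The authors deposited RPKM per library, log2 fold changes and log2 CPM, the F score of their test, and p-values with adjusted values, per the file headers except the RPKM unit, which was read from the values. fastp 0.23.4, featureCounts of Subread 1.5.1, edgeR 3.12.1 and GRCm38 are named in the submitters' processing notes. No source used here names the aligner or the annotation. The members and lists were chosen with earlier results of these data known.

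From the files, means, SDs and ratios of mean RPKM were computed without a pseudocount or filter, in Python 3.11.15 with pandas 2.3.3 and SciPy 1.17.1. The number of genes tested was the one that made most ratios of p to adjusted p whole ranks. Library totals were those that made RPKM times GENCODE M21 exonic length whole reads within 0.05 for 88.4 to 92.1 percent of values under 400 reads. On simulated data the method recovered 3 of 3 known totals within 0.1 percent. The simulated reads used the same exonic lengths, so this does not check whether those lengths match the authors' annotation. Counting intervals are exact 95 percent Poisson intervals per library and Clopper-Pearson intervals for ratios of summed reads. No test was run on the members, since the contrast chose them. The planned limma comparison between the treated groups was not run, because 0 members had values in all 9 libraries. Named genes were the 7 members, listed genes of the fixed lists, the 5 most alike, listed genes of the chromosome 3 stretch and the 2 nearest the fold minimum. Another planned hepatocyte symbol, Tf, was not in the annotation and was left out of the count. Alternatives were pseudocounts of 1 and 0.1 RPKM, medians, the authors' folds, a minimum mean of 1 RPKM, an adjusted p under 0.05, a log2 fold of at least 2, leaving out each library, and, added after the data were seen, a restriction by shared words and ratios within replicate numbers.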

Additional observations from a re-analysis of the deposited data

How the results depend on the processing

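Of 85 alternative log2 ratios of single genes over 13 settings, 85 stayed above 0, which the choice of genes fixes, and 76 moved by less than the spread between libraries. Leaving out a library shifts a group mean by less than the SD of its libraries, so those settings could hardly count as moved. Nothing is therefore read from the count of 76. A pseudocount of 1 RPKM lowers ratios of low genes by construction: 3 of 7 genes then had a log2 ratio of at least 1, with a median of 0.95 against 2.28. The median was 1.77 with a pseudocount of 0.1 RPKM and 2.60 with medians of libraries. With a mean of at least 1 RPKM, 4 genes were left, with a median of 2.02. Among genes sharing under 10 percent of their words, 4 were left by construction, with a median of 2.07. A log2 fold of at least 2 in the authors' deposited table kept 4 of the 7. Leaving out each library gave medians from 2.23 to 2.43, and all 7 genes stayed at a log2 ratio of at least 1. They also stayed without overlap, which was fixed in advance, since leaving out a library cannot make separate groups overlap. Single genes ranged from 3.33 to 3.74 for Krt16, from 2.45 to 2.99 for Lce1h, from 1.51 to 2.03 for Sprr2e and from 1.64 to 2.43 for S100a14. Low read numbers in control, 2 to 18 per library for 5 of the 7 genes, limit the ratios. With a replicate block, as the mean of log2 ratios within replicate numbers, the median was 2.28 and 7 of 7 genes stayed at 1 or more; single pairs ran down to 0.95, for Sprr2e in replicate 1. Over the 160 listed genes, same-numbered libraries deviated from their group means with r of 0.0011, 0.16 and -0.025. For 5 of the 7 genes the SD of log2 ratios within replicate numbers was below the unpaired SD. Whether same-numbered libraries belong together was not tested.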
